A study of Homo sapiens with 3 samples.

Results

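The unfolded protein response is the programme with which a cell answers misfolded protein in the endoplasmic reticulum. The genes described are HSPA5, XBP1, DDIT3, ATF4, HERPUD1 and CALR. The members are the ChIP-seq regions of 3 deposited lists whose centre lies in a fixed hg19 window around 1 of these 6 genes. The windows are chr9:127992000-128009000 for HSPA5, chr22:29185000-29202000 for XBP1, chr12:57905000-57919000 for DDIT3, chr22:39911000-39924000 for ATF4, chr16:56960000-56983000 for HERPUD1 and chr19:13044000-13060000 for CALR, 100 kb in all. They hold 33 of 59983 regions: 12 of 24782 for RNA polymerase II (Pol II) with TBBz, 12 of 21819 for Pol II with DMSO, and 9 of 13382 for CK2α.

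The cells were LNCaP, an androgen-responsive human prostate carcinoma line, and every library came from cells given 100 nM of the androgen dihydrotestosterone (DHT) after 3 days in charcoal-stripped serum. Pol II was precipitated from cells held for 2.5 hours with 25 μM TBBz, a brominated benzimidazole that inhibits the protein kinase CK2, or with the vehicle DMSO, and DHT was present for the last 1.5 hours. CK2α, a catalytic subunit of that kinase, was precipitated from cells given DHT without inhibitor, for 2.5 hours by the treatment label and for 90 min by the protocol. The libraries held 22345614 tags for Pol II with TBBz, 15466579 for Pol II with DMSO and 19021404 for CK2α. Each group was 1 library, so the spread between replicates is unknown and nothing was tested between groups. Intervals are exact (Clopper-Pearson) 95% binomial intervals and cover counting error only. A difference with TBBz cannot be told apart from an effect of the compound on targets other than CK2.

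Misfolded protein is sensed by IRE1, PERK and ATF6, which sit in the membrane of the endoplasmic reticulum. IRE1 splices the XBP1 mRNA, which then encodes an active transcription factor. PERK slows translation in general while the transcription factor ATF4 is made, and ATF4 induces DDIT3 (CHOP), a factor tied to cell death under prolonged stress. HSPA5 (BiP) is the main Hsp70 chaperone of the endoplasmic reticulum, CALR (calreticulin) is its calcium-binding lectin chaperone, and HERPUD1 is a membrane protein that serves the degradation of misfolded protein. In prostate cancer cells the IRE1 and XBP1 arm has been linked to androgen signalling.

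ATF6 and XBP1 are known to act through the ER stress response element (CCAAT, then 9 bases of any kind, then CCACG), which was looked for in the RefSeq promoters (GRCh38.p14, 250 bases before to 50 after the start) of these genes, on both strands. The promoters of the 6 genes are shown because each lies at a gene start that carried a Pol II region in both treatments, with or without CK2α beside it. Capitals mark the element in HSPA5, XBP1 and CALR (in CALR on the opposite strand), its second form (ATTGG, then 1 base of any kind, then CCACG) in HERPUD1, and a TATAA in HSPA5, CALR, HERPUD1 and ATF4; DDIT3 has none of these. The sequences are chr9:125241294-125241593 (minus strand) for HSPA5, chr22:28800520-28800819 (minus) for XBP1, chr19:12938359-12938658 (plus) for CALR, chr16:56931892-56932191 (plus) for HERPUD1, chr22:39520309-39520608 (plus) for ATF4 and chr12:57520465-57520764 (minus) for DDIT3. These positions are of another build than the regions and are not to be set against them.
HSPA5: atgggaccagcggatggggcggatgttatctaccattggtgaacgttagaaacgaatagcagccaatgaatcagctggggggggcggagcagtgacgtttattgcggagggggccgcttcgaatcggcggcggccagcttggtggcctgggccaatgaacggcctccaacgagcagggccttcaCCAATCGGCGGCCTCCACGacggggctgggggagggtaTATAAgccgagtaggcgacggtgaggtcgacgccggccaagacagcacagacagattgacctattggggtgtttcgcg
XBP1: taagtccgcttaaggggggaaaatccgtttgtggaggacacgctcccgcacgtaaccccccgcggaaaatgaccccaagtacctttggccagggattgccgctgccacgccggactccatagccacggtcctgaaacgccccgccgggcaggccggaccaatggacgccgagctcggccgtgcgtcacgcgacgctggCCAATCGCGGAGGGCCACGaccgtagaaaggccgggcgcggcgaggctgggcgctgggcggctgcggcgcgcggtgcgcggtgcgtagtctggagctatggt
CALR: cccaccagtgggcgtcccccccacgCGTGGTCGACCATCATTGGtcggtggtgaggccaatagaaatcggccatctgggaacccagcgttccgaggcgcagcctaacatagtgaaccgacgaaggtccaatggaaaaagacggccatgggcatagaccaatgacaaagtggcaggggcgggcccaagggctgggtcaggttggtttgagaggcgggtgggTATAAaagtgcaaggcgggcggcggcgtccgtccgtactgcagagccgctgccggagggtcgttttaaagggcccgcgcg
HERPUD1: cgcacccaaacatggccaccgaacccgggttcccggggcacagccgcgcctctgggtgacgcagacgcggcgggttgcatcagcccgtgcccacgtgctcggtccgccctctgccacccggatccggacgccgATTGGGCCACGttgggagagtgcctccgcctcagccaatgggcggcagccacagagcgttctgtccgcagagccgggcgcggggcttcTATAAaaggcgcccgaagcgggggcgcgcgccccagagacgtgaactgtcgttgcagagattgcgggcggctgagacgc
ATF4: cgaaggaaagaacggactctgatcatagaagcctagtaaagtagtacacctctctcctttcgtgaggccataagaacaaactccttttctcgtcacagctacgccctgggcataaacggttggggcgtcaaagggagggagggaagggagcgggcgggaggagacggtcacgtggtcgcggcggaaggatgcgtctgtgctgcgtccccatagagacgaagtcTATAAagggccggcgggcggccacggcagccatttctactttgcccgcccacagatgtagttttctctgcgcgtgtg
DDIT3: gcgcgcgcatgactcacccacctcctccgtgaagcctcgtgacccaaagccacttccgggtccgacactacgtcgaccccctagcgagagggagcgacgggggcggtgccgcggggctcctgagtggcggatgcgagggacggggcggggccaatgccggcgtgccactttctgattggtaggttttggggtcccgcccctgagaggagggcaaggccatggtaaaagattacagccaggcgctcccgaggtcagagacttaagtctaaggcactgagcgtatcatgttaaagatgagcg

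The element was found once each in HSPA5, where it began 66 bases before the RefSeq start, in XBP1, where it began 52 bases before the start, and in CALR, where it lay on the opposite strand 225 bases before the start. Among all 35116 promoters of the same length 27 held it, a share of 0.0769%. With the last base left free it was also found in DDIT3, as ccaatgccggcgtgccact at 100 bases before the start, and in HERPUD1, as ccaatgggcggcagccaca at 83 bases. That form, which contains the first, was in 5 of the 6 promoters and in 0.316% of all promoters. The second form was found in HERPUD1 alone among the 6, at 117 bases before the start, and in 0.0541% of all promoters. A TATAA on the coding strand was found in HSPA5, ATF4, HERPUD1 and CALR between 27 and 30 bases before the start, and anywhere in 14.8% of all promoters. The letters TGACGTGG and TGACGTCA were found in none of the 6, against 0.729% and 1.85% of all promoters. CCAAT alone, which the element contains, was in 5 of the 6, ATF4 being the exception, and in 34.6% of all promoters. The second form, the free last base and TATAA were added after the sequences had been seen. The element was looked for because it is known in this response, so the shares of all promoters are background and no enrichment was tested. XBP1, DDIT3 and ATF4 have 2 RefSeq starts each; the first listed is shown, and for XBP1 the element is in 1 of its 2 entries.

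The windows reach about 5 kb past each gene, so the ends of each gene were taken as the window edges moved in by 5 kb. The spans taken in this way are 70 to 990 bp longer than the RefSeq genes, and a start or end is therefore known to about 1 kb. A region within 1 kb of the start taken was counted as a start region, and one within 1 kb of the end taken as an end region. Distances below are in the direction of transcription, and mostly from the centre of the DMSO Pol II region nearest the start taken. The size of such a distance needs no annotation, but the choice of the region rests on the start taken. Any gene with a DMSO region in its window has such a region by construction.

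Pol II stood at the start of all 6 genes in both treatments. Within 1 kb of the start taken, both Pol II lists had a region at 5 of the 6 genes. The exception was HERPUD1, whose first Pol II region lay 1101 bp inside the start taken with TBBz and 1080 bp inside it with DMSO, and which is counted as the start region of that gene below. The TBBz start regions are chr9:128003490-128003690 (HSPA5), chr22:29196392-29196592 (XBP1), chr12:57914144-57914344 (DDIT3), chr22:39916496-39916696 (ATF4), chr16:56966001-56966201 (HERPUD1) and chr19:13049376-13049576 (CALR). Their centres lay 17 bp upstream of the DMSO centre at HSPA5, 1 bp upstream at XBP1, 1 bp downstream at ATF4, 19 bp downstream at DDIT3 and CALR, and 21 bp downstream at HERPUD1. The median offset was 18.0 bp regardless of direction, which is near that of the first 2298 DMSO regions, the stretch of the list that holds the 6 start regions: 17 bp (quartiles 8 and 33 bp) over 2293 pairs within 1 kb. All 6 DMSO start regions overlapped a TBBz region, as did 92.5% of those first 2298. The presence of Pol II at these starts with TBBz is what most early DMSO regions show.

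**Figure D1:**
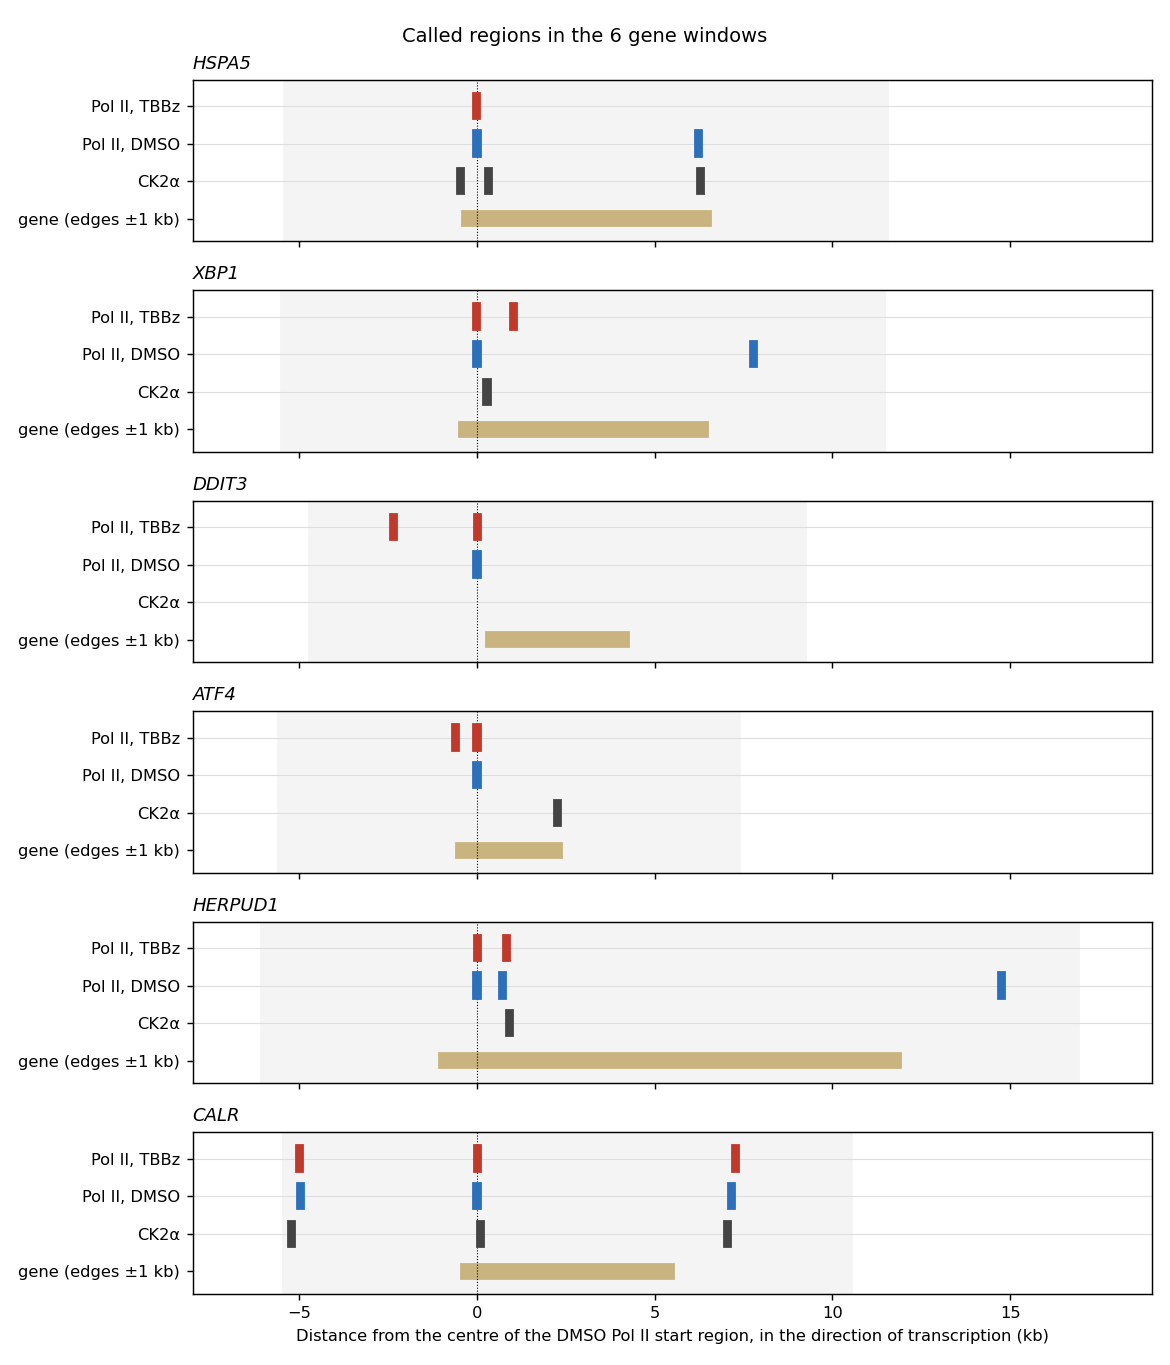
Called regions in the windows of the 6 genes, drawn to scale. The horizontal axis is the distance in kb from the centre of the DMSO Pol II start region, in the direction of transcription; coloured blocks are regions of 201 bp in the Pol II list with TBBz (red), the Pol II list with DMSO (blue) and the CK2α list (dark grey), the light brown bar is the gene span taken, known to about 1 kb at each edge, and the pale grey area is the window. Both Pol II lists have a block at 0 in every panel, and blocks of DMSO without TBBz stand at 6239 bp in HSPA5, 7773 bp in XBP1 and 14758 bp in HERPUD1.

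The lists carry no tag count for a region, and the place of a region in its own list, which runs from strong to weak as far as can be judged, is the one guide to its strength. CALR, the lectin chaperone, had the earliest start region of the 6, at place 70 of 24782 with TBBz and 71 of 21819 with DMSO. HERPUD1, the degradation gene, followed at place 239 with TBBz and 201 with DMSO. DDIT3, which encodes CHOP, stood at place 643 with TBBz and 204 with DMSO. HSPA5, which encodes BiP, stood at place 1864 with TBBz and 545 with DMSO, and XBP1 at place 2121 with TBBz and 2298 with DMSO. ATF4 was the last of the 6 with TBBz, at place 4346 or 17.5% of the list. With DMSO it was the fourth, at place 216 or 0.99% of the list. The TBBz start region used for ATF4 is the one nearest the DMSO centre. Another TBBz region, 4 bp from the start taken, stood earlier, at place 2543 or 10.3% of the list. Places in lists of different length carry no size, and no change in Pol II amount is read from them.

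**Figure D2:**
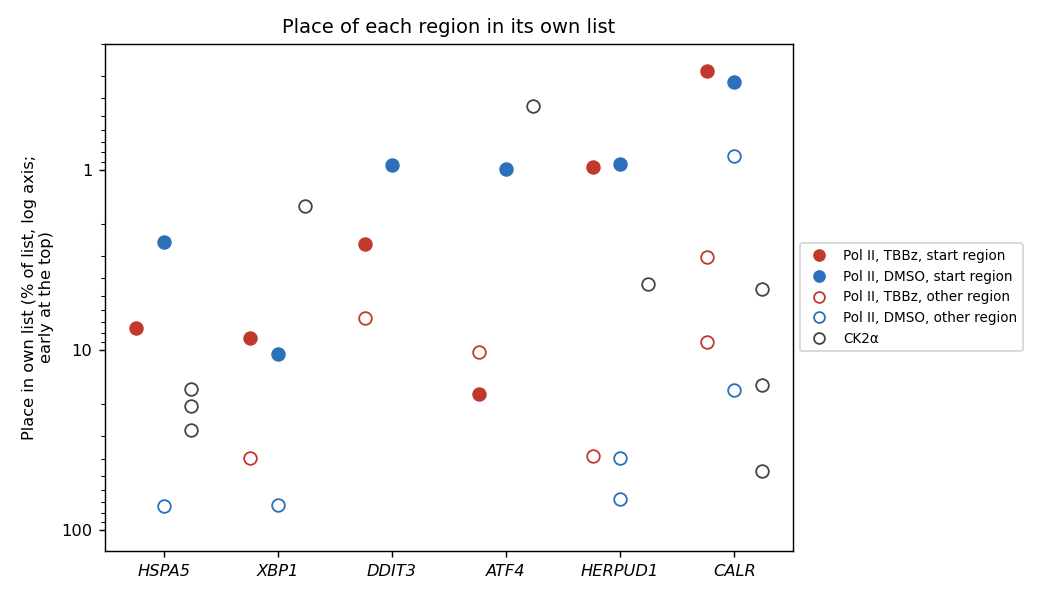
Place of each of the 33 regions in its own list, in percent of the list on a reversed log axis, by gene. Filled points are the Pol II start regions with TBBz (red) and DMSO (blue), open points are other Pol II regions and CK2α regions (dark grey). Filled points of CALR and HERPUD1 nearly coincide in height between the treatments. The filled ATF4 points stand at 17.5% with TBBz and 0.99% with DMSO, and an open TBBz point of ATF4 stands at 10.3%.

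ATF4 also differed between the lists in the number of regions at its start. With TBBz a further region, chr22:39915896-39916096, lay 599 bp upstream of the DMSO start region and stood ahead of the TBBz start region in the list, at place 2543. With DMSO the ATF4 window held the start region alone, chr22:39916495-39916695. XBP1 had a further TBBz region, chr22:29195353-29195553, 1038 bp inside the gene at place 9879, with no DMSO region closer than the one at the start. HERPUD1 had a further region in both lists, chr16:56966800-56967000 with TBBz at 820 bp and chr16:56966693-56966893 with DMSO at 713 bp, and these overlapped by 94 bp. At least 2 regions within 1.5 kb of the DMSO start region were thus found at 3 of 6 genes with TBBz, namely XBP1, ATF4 and HERPUD1, and at 1 of 6 with DMSO, HERPUD1. Among the first 2298 DMSO regions the shares were 22.5% with TBBz and 13% with DMSO. The distance of 1.5 kb was chosen after the regions had been seen, and the TBBz library was the deeper one, with 12.6% of its tags in regions against 6.79% with DMSO; the part of depth in the further regions was not tested.

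At and past the gene ends the lists differed the other way. With TBBz 1 of the 6 genes had a region at its end or beyond, and with DMSO 4 had one. CALR had one in both lists, and HSPA5, XBP1 and HERPUD1 had one with DMSO and none with TBBz. At HSPA5 the DMSO region was chr9:127997234-127997434, 334 bp before the end taken and 6239 bp from the start region; the nearest TBBz region was the one at the start of the gene. At XBP1 it was chr22:29188618-29188818, 1282 bp past the end taken, and the nearest TBBz region was 6735 bp back inside the gene. At HERPUD1 it was chr16:56980738-56980938, 2838 bp past the end taken, and the nearest TBBz region was 13938 bp back. RABEPK follows HSPA5 in the RefSeq order, CCDC117 follows XBP1 and CETP follows HERPUD1, so Pol II at these places need not belong to the 6 genes.

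These 3 DMSO regions stood late in their list, at place 15941 for HSPA5, 15696 for XBP1 and 14572 for HERPUD1, or between 66.8% and 73.1% of it. Among the 1370 DMSO regions at places 14572 to 15941, 32.4% overlapped no TBBz region and 16.5% had no TBBz centre within 2 kb. All 3 members of this kind had none within 2 kb, but they were picked out by that property, and 3 regions give no measure of whether ends of these genes lose Pol II regions more often than others. In the first 50% of each list 1 gene had a DMSO region at its end or beyond, CALR. The local rule of the peak caller, which removes a candidate that does not stand 4-fold above the surrounding 10 kb, removed 35.3% of candidates with TBBz and 53.7% with DMSO. A region missing from a list is therefore not a site shown to lack Pol II, and the factor style of the caller is made for point-like binding, not for Pol II spread along a gene.

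**Figure D3:**
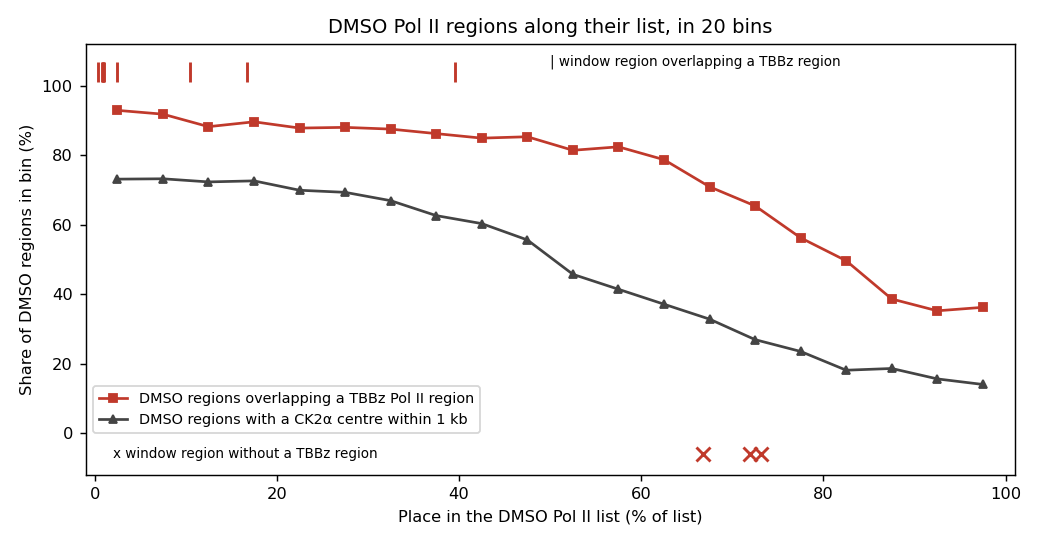
DMSO Pol II regions along their list in 20 bins. The horizontal axis is the place in the list in percent; red squares give the share of regions in a bin that overlap a TBBz Pol II region and dark grey triangles the share with a CK2α centre within 1 kb, both in percent. Upright ticks at the top are the 9 window regions that overlap a TBBz region, all within the first 39.6% of the list, and crosses at the bottom the 3 that do not, from 66.8% to 73.1%.

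At DDIT3 and CALR regions were also found outside the genes. DDIT3 had a TBBz region 2341 bp upstream of its DMSO start region, chr12:57916504-57916704, at place 1648, with no DMSO region within 2 kb; MBD6, on the opposite strand, is the next RefSeq gene on that side. CALR had regions of all 3 lists on both sides of the gene. Upstream, near the window edge, they were chr19:13044375-13044575 with TBBz, chr19:13044397-13044597 with DMSO and chr19:13044149-13044349 for CK2α; FARSA, on the opposite strand, is the neighbour on that side. Past the end each list had 1 region. The TBBz centre lay 123 bp downstream of the DMSO centre there, the largest offset among the 9 overlapping pairs in the windows. Positions of neighbouring genes in hg19 were not used here, so the regions were not assigned to them.

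CK2α lay beside Pol II at 4 of the 6 starts. At CALR the CK2α region chr19:13049462-13049662 overlapped both Pol II start regions, with its centre 105 bp downstream of the DMSO centre. At XBP1 the region chr22:29196109-29196309 lay 282 bp inside the DMSO start centre, 81 bp clear of the DMSO region, and stood at place 212 of the CK2α list. At HERPUD1 the region chr16:56966898-56967098 lay 918 bp inside the start centre, where it overlapped the second TBBz region by 103 bp and missed the second DMSO region by 4 bp. HSPA5 had a CK2α region on each side of its start, chr9:128003137-128003337 at 336 bp downstream and chr9:128003931-128004131 at 458 bp upstream, with neither overlapping Pol II. A CK2α centre within 1 kb on each side was found for 6.70% of the first 2298 DMSO regions, and a CK2α centre within 1 kb on any side for 73.0%. The median distance to the nearest CK2α centre in such pairs was 227 bp (quartiles 103 and 357 bp). The nearest distances at CALR, XBP1 and HSPA5 lie between these quartiles, and that at HERPUD1 is above the upper one.

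DDIT3 and ATF4 had no CK2α region within 1 kb of the start. A CK2α region was thus that near at 4 of the 6 starts, against 73.0% of the first 2298 DMSO regions, and nothing is read from its absence at the others. In the DDIT3 window there was no CK2α region at all, and the nearest lay 26644 bp upstream of the DMSO start region. At ATF4 the one CK2α region, chr22:39918752-39918952, was at the other end of this short gene, 148 bp before the end taken and 2257 bp from the DMSO start region, with no region of either Pol II list closer than those at the start. It stood at place 59 of 13382, the earliest of the 9 CK2α members, and the next CK2α regions outside the window were 201 kb upstream and 475 kb downstream of the start. HSPA5 likewise had CK2α at its end: chr9:127997190-127997390 overlapped the DMSO end region by 157 bp, with the centres 44 bp apart, and no TBBz region was called there. CK2α thus had a region at the gene end or beyond at 3 genes, HSPA5, ATF4 and CALR. Among DMSO regions at the places of the late members, 17.8% overlapped CK2α, against 1 of the 3 late members.

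Over all members no share could be told apart from that of the whole list, since 9 to 12 regions give wide intervals. Of the 12 TBBz regions 9 overlapped a DMSO region, which is 75% (42.8 to 94.5%), against 65.0% of the whole TBBz list. With DMSO 9 of the 12 regions overlapped one of TBBz, also 75%, against 73.8% of the whole DMSO list. CK2α overlapped 2 of the 12 TBBz regions, 16.7% (2.09 to 48.4%), and 3 of the 12 DMSO regions, 25.0% (5.49 to 57.2%), against 19.4% and 22.6% of the whole lists. Of the 9 CK2α regions 2 overlapped Pol II with TBBz and 3 overlapped Pol II with DMSO, that is 22.2% and 33.3%, against 36% and 36.8% of the whole CK2α list. With CK2α counted within 1 kb, 8 of 12 TBBz and 8 of 12 DMSO regions had it nearby, 66.7% (34.9 to 90.1%) in each, against 42.2% and 47.5% of the whole lists. Counted likewise, 7 of the 9 CK2α regions lay near Pol II with TBBz and 8 near Pol II with DMSO, 77.8% and 88.9%, against 77% and 78.3% of the whole list. By the same distance 10 of 12 TBBz regions had a DMSO centre and 9 of 12 DMSO regions a TBBz centre, against 76.6% and 85% of the whole lists. Each of these shares of the whole lists lies within the members' 95% interval, and regions of 1 gene are not independent of each other.

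**Figure D4:**
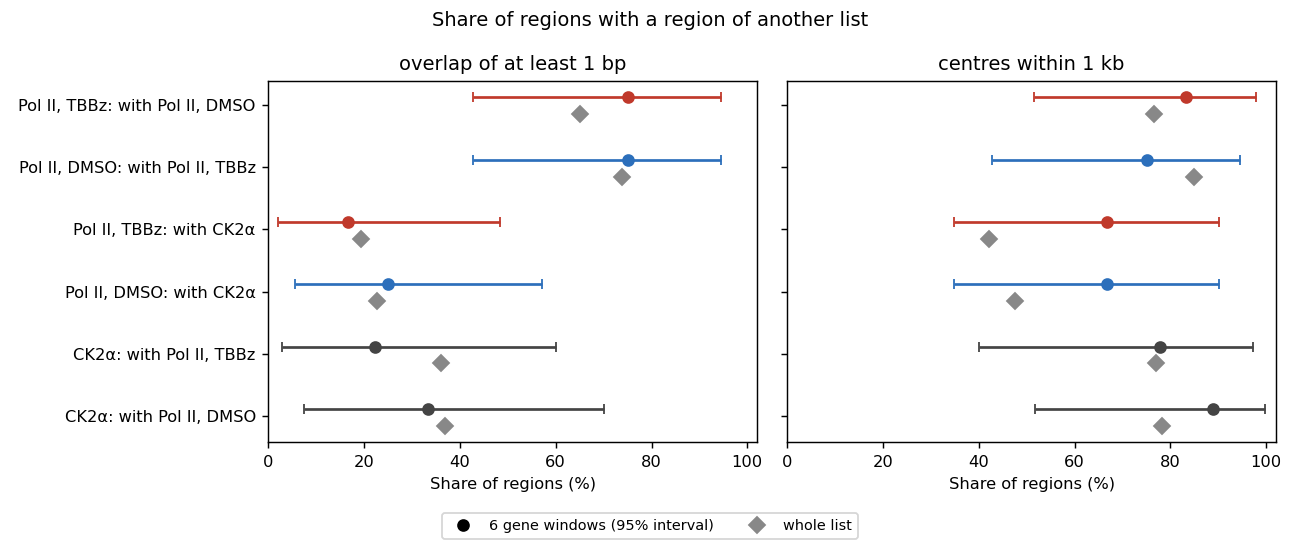
Share of regions, in percent, with a region of another list, by an overlap of at least 1 bp (left) and by centres within 1 kb (right). Points with bars are the regions in the 6 windows with exact 95% binomial intervals, for 12 TBBz Pol II regions (red), 12 DMSO Pol II regions (blue) and 9 CK2α regions (dark grey), and grey diamonds are the whole lists. The diamonds lie within the bars in both panels.

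The 6 genes lay in unlike surroundings. Within 50 kb of the DMSO start region CALR had 9 regions with TBBz, 9 with DMSO and 4 of CK2α, and HERPUD1 had 2 with TBBz, 3 with DMSO and 1 of CK2α. Around ATF4 there were 7 regions with TBBz, 3 with DMSO and 1 of CK2α, and around XBP1 7 with TBBz, 6 with DMSO and 2 of CK2α. HSPA5 had 3 with TBBz, 4 with DMSO and 4 of CK2α, and DDIT3 had 4 with TBBz, 3 with DMSO and 2 of CK2α. The medians around the first 2298 DMSO regions were 3 with TBBz (quartiles 2 and 6), 3 with DMSO (2 and 5) and 2 of CK2α (1 and 3). The TBBz counts around ATF4, XBP1 and CALR are above the upper quartile, the DMSO counts are so around XBP1 and CALR, and the CK2α counts around HSPA5 and CALR. All these counts include the window regions described above. Of the 4 CK2α regions counted at each of HSPA5 and CALR, 3 lay in the window itself.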

How the data were processed

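Regions of 3 ChIP-seq libraries from LNCaP cells were used, grouped by the antibody and treatment labels; the source label mentions TBBz for both Pol II libraries. The submitters' processing notes name Bowtie, HOMER and hg19, with no versions. Regions were called by the authors for 1 library at a time, per the file headers, with HOMER in its factor style (peak size 200 bp, minimum distance 500 bp, fragment length 150 bp, false discovery rate 0.001), with no control library named. The tag threshold was 13 for TBBz, 11 for DMSO and 12 for CK2α. The deposited score is 1 for every region, so the place in the list was used instead.

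Starts were raised by 1. Centres were matched to the windows, and overlap meant at least 1 bp. The tables were made with Python 3.11.15, NumPy 2.4.6, SciPy 1.17.1 and Matplotlib 3.10.9, and overlap counting was tested on simulated data. RefSeq (GRCh38.p14) gave strands, neighbours, lengths and promoters, and all 6 symbols matched. The named genes are the 6 members with every region in their windows. The members, windows and motifs were chosen with earlier results of these data known. Other genes of the response, for which hg19 positions were not at hand, were not analysed here.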

Additional observations from a re-analysis of the deposited data

How the results depend on the processing

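Of 76 recomputed values of 14 results, 63 stayed within the counting interval of the value reported or within 1.5 times its count, and 13 moved. CK2α near Pol II moved with the definition of nearness. With centres within 500 bp, 50% of the TBBz and 58.3% of the DMSO regions had CK2α, against 35.6% and 40.3% of the whole lists, and 88.9% of the CK2α regions had Pol II with DMSO, against 66.8%. Within 2 kb, and within 1 kb (chosen after the data were seen), these were 66.7%, 66.7% and 88.9%. The whole lists gave 44.7%, 49.8% and 80.6% within 2 kb, and 42.2%, 47.5% and 78.3% within 1 kb. A wider rule counts more regions by construction, in the whole lists too. In the first 50% of each list 9 of 9 DMSO regions in the windows (100%) overlapped TBBz. Along the first 50% of the whole DMSO list, 84.9% to 92.9% of the regions in a bin overlapped the full TBBz list. The cut leaves out the late regions, and 1 gene had a DMSO region at its end or beyond. With start zones of 0.5 kb, DMSO Pol II was counted at 3 starts and CK2α at 1, against 5 and 3 with 1 kb, which is within the uncertainty of the gene starts taken. Where regions had to share 50% of the shorter one, 8.33% of the DMSO regions had CK2α, against 25% by 1 bp. Of the CK2α regions 11.1% had Pol II with DMSO by that rule, against 33.3% by 1 bp. Both stayed within the wide intervals of the values reported. The corresponding shares of the whole lists were also lower by that rule than by 1 bp, so the fall was not seen in these genes alone. Narrower or wider windows, zones of 1.5 kb and a TBBz list as long as the DMSO list left their values within the same limits. No paired analysis was possible because there is 1 library in each group. With 9 to 12 regions per list the intervals are wide, and a difference from the whole lists is detectable only where it exceeds them.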
